A study of Mus musculus with 4 samples.

Results

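The genes described here are the albumin family (Alb, Afp, Afm and Gc), the fetal liver glypican gene Gpc3 and 3 genes for factors that repress Afp after birth (Zhx2, Zbtb20 and Zfhx3). They were followed through every probe set of a mouse expression array that names 1 of these 8 genes alone, a probe set being a group of short probes read as 1 value. Of the 45037 probe sets 25 met this rule, and they covered 7 of the 8 genes. Gc was named alone by none and is not analysed here. RNA came from whole livers of C57BL/6 mice at 4 weeks of age, with 1 array for each liver. The Cnot3KO group held 2 livers in which floxed Cnot3 had been deleted by Cre recombinase under the albumin promoter, which is active in hepatocytes and in the hepatoblasts they come from. The Cnot3 protein belongs to the Ccr4-Not complex, the main deadenylase of the cell, which trims the poly(A) tails of mRNAs. The Control group held 2 livers labelled wild type. Controls of the study could carry floxed Cnot3 without Cre, or Cre without a pair of floxed alleles, and the sources used here do not give the exact genotype of these Control mice. The labels give no sex. The p-values rest on the spread between 2 livers a group, combined with a prior spread taken over all kept probe sets.

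Albumin is the main plasma protein made by hepatocytes, and alpha-fetoprotein (Afp) takes its place in fetal plasma. Afamin (Afm) carries vitamin E and the vitamin D binding protein Gc carries vitamin D and actin. The genes for albumin, alpha-fetoprotein and afamin lie next to each other and share liver enhancers, but Afp is silenced soon after birth while Alb stays on. The zinc finger proteins Zbtb20 and Zfhx3 and the zinc finger homeobox protein Zhx2 repress Afp in the postnatal liver or in liver cell lines. Zhx2 also acts on Gpc3, whose product is a heparan sulphate proteoglycan of the cell surface that is abundant in fetal liver and in liver tumours.

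The 3 neighbouring genes are shown first by the 250 bases before their annotated start, because Alb, Afp and Afm went separate ways in these livers although they lie side by side. Sequences and positions are those of RefSeq on build GRCm38.p6, plus strand, at chr5:90490464-90490713 for Afp, chr5:90460620-90460869 for Alb and chr5:90518699-90518948 for Afm. The capitals mark TTGC, the short core of sites bound by C/EBP factors such as Cebpa and Cebpb, or GCAA where the match is on the other strand.
Afp: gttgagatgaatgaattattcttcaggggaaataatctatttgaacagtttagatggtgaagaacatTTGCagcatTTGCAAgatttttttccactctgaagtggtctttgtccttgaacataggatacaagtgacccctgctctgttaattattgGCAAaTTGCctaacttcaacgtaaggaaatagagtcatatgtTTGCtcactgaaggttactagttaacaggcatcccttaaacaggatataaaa
Alb: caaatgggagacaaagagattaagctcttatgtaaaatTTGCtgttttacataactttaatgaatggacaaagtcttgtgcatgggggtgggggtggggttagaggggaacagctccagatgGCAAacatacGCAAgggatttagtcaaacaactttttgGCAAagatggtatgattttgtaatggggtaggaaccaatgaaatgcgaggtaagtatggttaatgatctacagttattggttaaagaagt
Afm: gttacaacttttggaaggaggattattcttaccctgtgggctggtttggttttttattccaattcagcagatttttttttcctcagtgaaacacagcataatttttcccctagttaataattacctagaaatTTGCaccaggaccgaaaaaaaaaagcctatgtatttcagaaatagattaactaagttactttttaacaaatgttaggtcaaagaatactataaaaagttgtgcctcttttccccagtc
The Afp promoter held 6 matches of TTGC, from position -183 to -52 from the start, and those at -174 and -172 overlap on opposite strands. The Alb promoter held 4, from -212 to -90, and Afm 1, at -118. Of 32851 mouse promoter windows of the same length, 79.3% held at least 1 TTGC and 48.7% held 2 or more. No match lay in the windows of Zbtb20 and Zfhx3, Gpc3 held 4, and there was no window for Zhx2. The HNF4 motif AGGTCA occurred once among these 3 albumin family windows, in Afm at -44, and in 14.0% of all windows. The FOXA core TGTTTAC occurred in none of the windows searched for these genes and in 3.17% of all. Both strands were searched, and no TTGC match overlapped a match of another motif in the 3 windows. GC content was 36% in Afp, 39.2% in Alb and 33.2% in Afm, against a median of 52.4% over all windows. A match of these letters is a description of the sequence and not of binding.

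Of the 25 probe sets 4 were higher and 11 lower in Cnot3KO livers, and 10 did not pass the test. Levels and differences are on the log2 scale of the array intensity, ± gives the standard error (SE) of a difference. Tests were made in limma with Benjamini-Hochberg adjustment over 38405 probe sets, and a probe set was called at an adjusted p under 0.05. Over all these probe sets 8.48% were called higher and 4.78% lower. By gene, each represented by its brightest probe set, Afp and Gpc3 were higher, Afm and Zbtb20 lower, and Alb, Zhx2 and Zfhx3 were not called, where 12.2% of 16758 genes were higher and 4.64% lower. Both Cnot3KO arrays lay above both Control arrays for 5 of the 25 probe sets and below them for 17, with overlap for 3. Over all probe sets tested these shares were 26.9% above and 35.9% below, with no test. The median difference of the 25 was -0.64, against -0.08 over all probe sets tested. These counts and this median lean on 2 genes, since 9 of the 25 probe sets name Zbtb20 and 6 name Zfhx3. By gene the median was -0.24, against 0.00 over all genes tested. All 25 lay above the 20th percentile of every array.

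**Figure D1:**
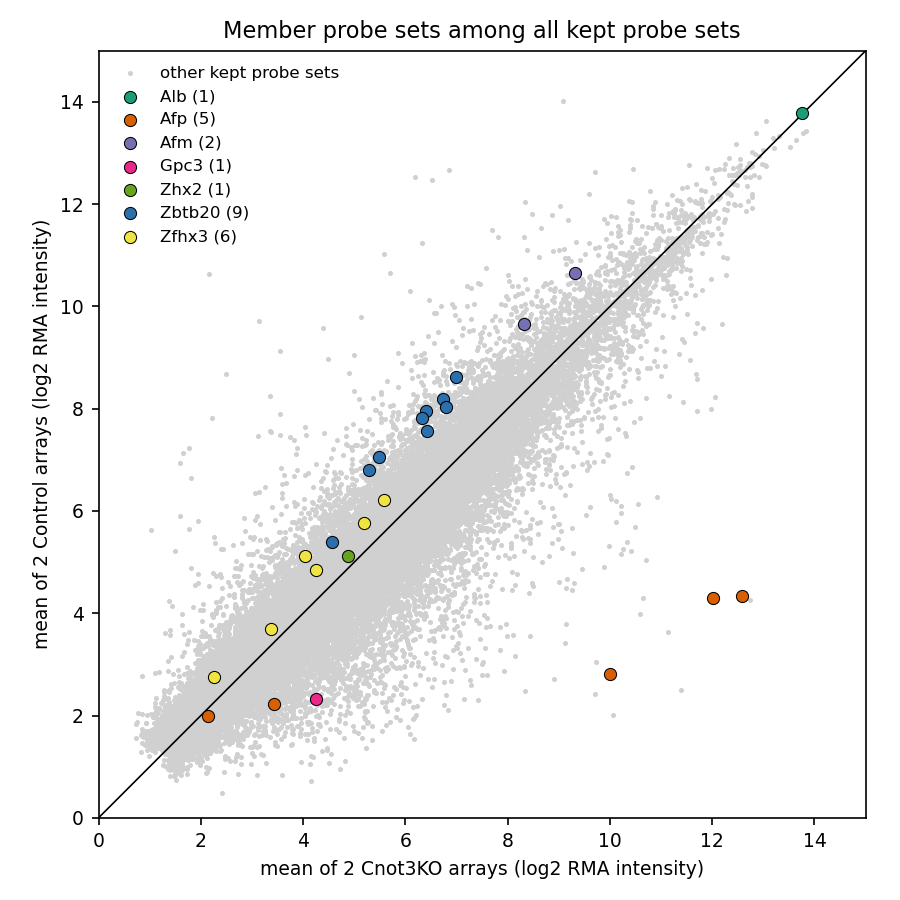
Mean log2 intensity of the 2 Cnot3KO arrays (x axis) against that of the 2 Control arrays (y axis), 1 point per probe set, with the line of equal values. Coloured points are the 25 probe sets of the 7 genes and gray points the others that passed the filter. The 3 brightest Afp probe sets lie far to the right of the line, Alb lies on it at the top of the range, and the Zbtb20 and Afm points lie above it.

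Cnot3 itself was read by 2 probe sets. The brighter one (1435965_at) read 5.15 and 5.30 in Cnot3KO livers, against 5.99 and 6.04 in Control livers, and was lower by -0.79 ± 0.16 (limma, adjusted p = 0.0372). The other read 4.35 and 4.06 in Cnot3KO livers, against 4.71 and 4.51 in Control livers, and did not pass (-0.40, adjusted p = 0.218). Whether either of them reads exons that Cre removes could not be seen from the files, so they check the labels only in part.

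Afp was the member that changed most. Its brightest probe set (1416646_at) read 12.94 and 12.23 in Cnot3KO livers, against 4.43 and 4.25 in Control livers. The groups were far apart, and the Control values lay between the median and the 75th percentile of their arrays. The difference was 8.24 ± 0.27 (95% interval 7.56 to 8.93, adjusted p = 0.00212), which is 303-fold and the third highest of all differences tested. In whole liver, fewer cells of a type and less RNA per cell cannot be told apart, nor can more cells and more RNA per cell.

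The other Afp probe sets split into a bright and a dim group. A second one (1416645_a_at) read 12.39 and 11.64 in Cnot3KO livers, against 4.44 and 4.16 in Control livers, and differed by 7.72 ± 0.29 (210-fold). Another (1436879_x_at) read 10.20 and 9.81 in Cnot3KO livers, against 2.86 and 2.75 in Control livers, and differed by 7.20 ± 0.20 (147-fold, adjusted p = 0.00116). All 3 separated the groups by over 100-fold, though the Control values of 1436879_x_at lay below the array medians, where folds are imprecise. The remaining 2 probe sets were dim on every array and were not called. The first of them (1436881_x_at) read 3.97 and 2.88 in Cnot3KO livers, against 2.18 and 2.26 in Control livers (1.21 ± 0.36, adjusted p = 0.0907). The second (1436880_at) read 2.28 and 2.00 in Cnot3KO livers, against 1.93 and 2.05 in Control livers, with overlap (0.15 ± 0.18, adjusted p = 0.606). Of the 5 Afp probe sets 3 were thus called higher. In all 5 Cnot3KO replicate 1 read above replicate 2.

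Alb was not called. Its probe set (1425260_at) read 13.74 and 13.79 in Cnot3KO livers, against 13.84 and 13.73 in Control livers. The values overlapped, with a difference of -0.02 ± 0.16 (95% interval -0.42 to 0.38, adjusted p = 0.942). The Alb level lay 0.12 and 0.01 below the highest value of its array in Cnot3KO livers, against 0.15 and 0.32 in Control livers. Only 1 or 2 probe sets read above it on each array. Whether differences are compressed so near the top of the range was not tested.

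Afm moved in the direction opposite to Afp. Its brighter probe set (1427440_a_at) read 9.33 and 9.29 in Cnot3KO livers, against 10.71 and 10.59 in Control livers. The replicates lay close together, and the difference was -1.34 ± 0.16 (adjusted p = 0.0106), with Cnot3KO 2.52-fold lower. The other probe set (1427561_a_at) read 8.30 and 8.32 in Cnot3KO livers, against 9.55 and 9.77 in Control livers, and was lower by -1.35 ± 0.17 (adjusted p = 0.0117). The 2 Afm probe sets therefore gave differences of nearly the same size. Without Cnot3KO replicate 1 only 1 of the 2 was called.

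The same values were also set against Alb on the same array, which cancels any scaling of the array. Since Alb itself differed by -0.02, these differences had to lie close to those above. Afp lay at -0.80 and -1.56 relative to Alb in Cnot3KO livers, against -9.41 and -9.48 in Control livers, a difference of 8.26 (SD within groups 0.38). Afm lay at -4.41 and -4.49 in Cnot3KO livers, against -3.14 and -3.14 in Control livers, a difference of -1.31. These are changes of a ratio and not levels of one gene compared with another, since probe sets differ in how brightly they bind.

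**Figure D2:**
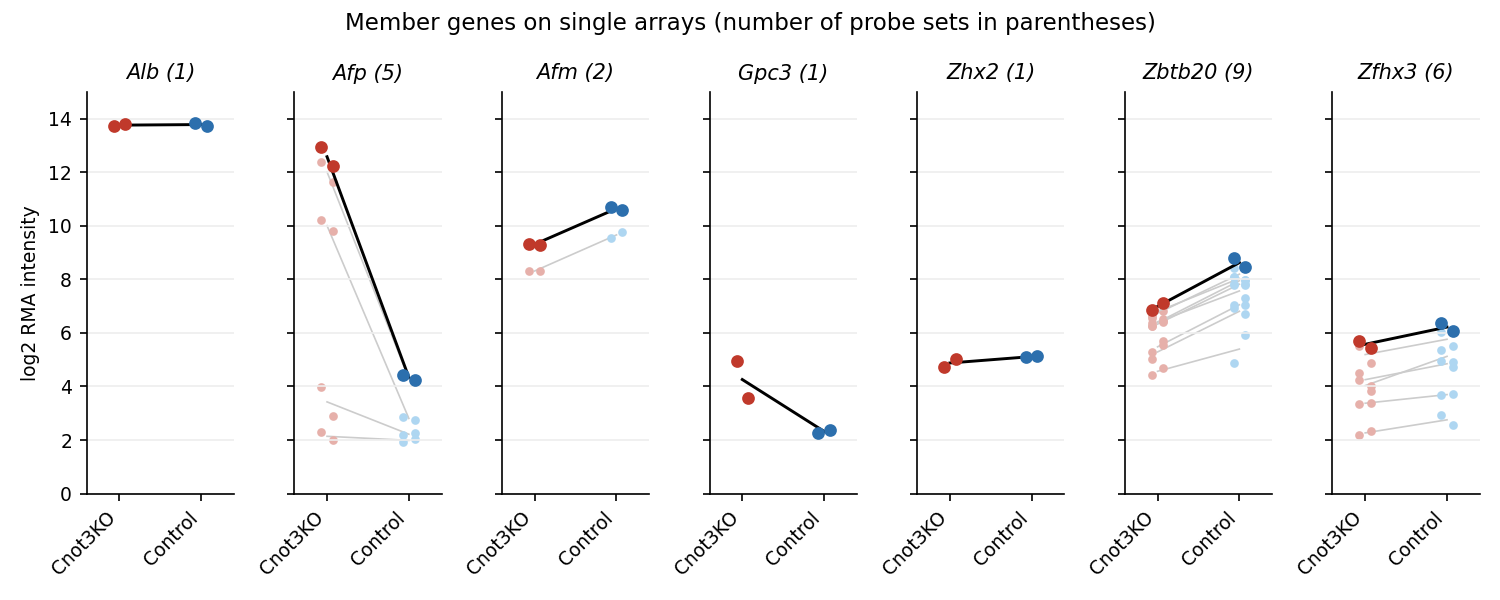
Log2 RMA intensity (y axis) of each gene on single arrays, with Cnot3KO (red) left of Control (blue) and the number of probe sets in parentheses. Large points and the black line, which joins the group means, are the brightest probe set of a gene, and small pale points with gray lines are its other probe sets. Afp drops by over 7 log2 units towards Control in 3 of its 5 probe sets, Alb overlaps between groups, and Afm and Zbtb20 are higher in Control.

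Gpc3 was higher in Cnot3KO livers, with livers that differed from each other. Its probe set (1450990_at) read 4.95 and 3.57 in Cnot3KO livers, against 2.27 and 2.38 in Control livers. The Control livers lay in the low range of their arrays, below the array medians, and the groups did not overlap. The difference was 1.94 ± 0.45 (95% interval 0.81 to 3.07, 3.83-fold), and it passed the test narrowly (adjusted p = 0.0487). The call was lost with no filter on low values (adjusted p = 0.0579) and with the replicate number as a block (adjusted p = 0.0594). Leaving out Cnot3KO replicate 1 gave a difference of 1.25 (adjusted p = 0.0600), leaving out Control replicate 1 gave 1.88 (adjusted p = 0.161) and leaving out Control replicate 2 gave 1.99 (adjusted p = 0.133), none of which passed.

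Most markers of bile duct and progenitor cells were also higher. Of 7 such markers measured, 6 were called higher and none lower, where 12.2% of all genes tested were higher and 4.64% lower. The summed linear intensity of these markers was 829 to 1157 in Cnot3KO livers, against 53.3 to 62.6 in Control livers. The adhesion gene Epcam read 7.64 and 6.37 in Cnot3KO livers, against 3.43 and 3.21 in Control livers. In all 7 markers Cnot3KO replicate 1 read above replicate 2, as for Afp and Gpc3 and for 50.4% of all kept probe sets. Their part in the rise of Afp and Gpc3 was not tested. Summed hepatocyte markers, Alb among them, were 50113 to 51652 in Cnot3KO livers, against 49846 to 50183 in Control livers. That sum rests mostly on Alb, Ttr and Apoa1, which lay near the top of the range, and says little about the other markers. Limma called 0 of 7 higher (1 at an unadjusted p under 0.05). It called 1 lower (Apob, -1.13), and 2 were lower at an unadjusted p under 0.05.

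Other marker lists differed less evenly, and their counts stand beside 12.2% higher and 4.64% lower over all genes tested. Stellate cell markers summed to 4199 to 5434 in Cnot3KO livers, against 1591 to 1912 in Control livers (6 of 8 higher), and macrophage markers to 2663 to 2897 in Cnot3KO livers, against 1460 to 1510 in Control livers (3 of 8 higher). Erythroid markers, of which Alas2 and Klf1 were lower among 6, summed to 76.3 to 119 in Cnot3KO livers, against 419 to 439 in Control livers. Most of the Control sum was Alas2, which read 5.37 and 6.35 in Cnot3KO livers, against 8.33 and 8.52 in Control livers. The other 4 were not called, with Gata1 at -0.19, Epb42 at -0.29 and Hba-a1 in the low range. Slc4a1 read 5.87 and 3.48 in the Control livers. Of 8 endothelial and 6 lymphocyte markers limma called 0 in either direction, and at an unadjusted p under 0.05 it gave 0 endothelial markers and 1 higher lymphocyte marker. The part of these cells in the values of the albumin family and its repressors was not tested.

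The other glypican genes did not follow Gpc3 as a group. Of 6 measured genes for glypicans and heparan sulphatases 1 was higher and none lower, with a median of 0.07. The shares over all genes tested were 12.2% higher and 4.64% lower. Sulf2, which removes sulphate groups from the chains that glypicans carry, read 8.34 and 7.96 in Cnot3KO livers, against 6.86 and 6.76 in Control livers (1.34 ± 0.20, adjusted p = 0.0164). Gpc4, another glypican gene, read 7.76 and 7.54 in Cnot3KO livers, against 7.94 and 7.78 in Control livers by its brightest probe set (-0.21, adjusted p = 0.460). Its other probe set was called lower (-1.05), and 2 of 5 Gpc6 probe sets were called higher although the brightest was not (0.82, adjusted p = 0.0848).

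Zbtb20, the repressor whose loss in hepatocytes is known to keep Afp on in adult mice, was lower in Cnot3KO livers by 8 of 9 probe sets. The brightest (1437598_at) read 6.86 and 7.11 in Cnot3KO livers, against 8.80 and 8.45 in Control livers. The groups lay well apart, with a difference of -1.64 ± 0.20 (adjusted p = 0.0114) and Cnot3KO 3.11-fold lower. The probe set with the smallest adjusted p (1451577_at) read 6.25 and 6.41 in Cnot3KO livers, against 7.80 and 7.84 in Control livers (-1.49 ± 0.16, adjusted p = 0.00918). The 8 called probe sets were lower by 2.22- to 3.11-fold, with differences from -1.64 to -1.15 and adjusted p up to 0.0294.

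The spread of Zbtb20 within groups was also visible over its probe sets. The probe set 1437065_at read 5.27 and 5.69 in Cnot3KO livers, against 7.05 and 7.06 in Control livers. A further one (1437066_at) read 5.04 and 5.54 in Cnot3KO livers, against 6.92 and 6.70 in Control livers. The probe set that was not called (1443471_at) read 4.45 and 4.69 in Cnot3KO livers, against 4.89 and 5.91 in Control livers, so that the Control livers differed by more than the groups did (-0.83 ± 0.35, adjusted p = 0.185). In all 9 probe sets both Cnot3KO arrays lay below both Control arrays, and Cnot3KO replicate 1 lay below replicate 2. Without 1 array the number of called probe sets was 3 (without Cnot3KO replicate 1), 7 (without Cnot3KO replicate 2), 2 (without Control replicate 1) or 6 (without Control replicate 2), with every difference still below 0. Probe sets of 1 gene read the same RNA and are not replicates.

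Zfhx3, also called ATBF1, which was found through its binding to an AT-rich element of the human AFP enhancer, differed less. Its brightest probe set (1420649_at) read 5.71 and 5.44 in Cnot3KO livers, against 6.35 and 6.09 in Control livers, and did not pass (-0.64 ± 0.19, adjusted p = 0.0901). Another (1460006_at) read 4.23 and 3.83 in Cnot3KO livers, against 5.36 and 4.90 in Control livers, and was called lower (-1.09 ± 0.24, adjusted p = 0.0440). That was 1 of 6 probe sets, with 5 whose arrays lay below Control and 1 with overlap, and its call was lost when any 1 array was left out. Differences over the 6 ranged from -1.09 to -0.32.

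Zhx2, whose reduced expression underlies the persistent Afp of the BALB/cJ strain, was not called. Its probe set (1455210_at) read 4.72 and 5.04 in Cnot3KO livers, against 5.09 and 5.14 in Control livers. Both Cnot3KO values lay below both Control values, but the difference of -0.24 ± 0.18 (95% interval -0.70 to 0.22, adjusted p = 0.421) was within the spread of the fit. The interval leaves room for a level up to 0.70 lower on the log2 scale.

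**Figure D3:**
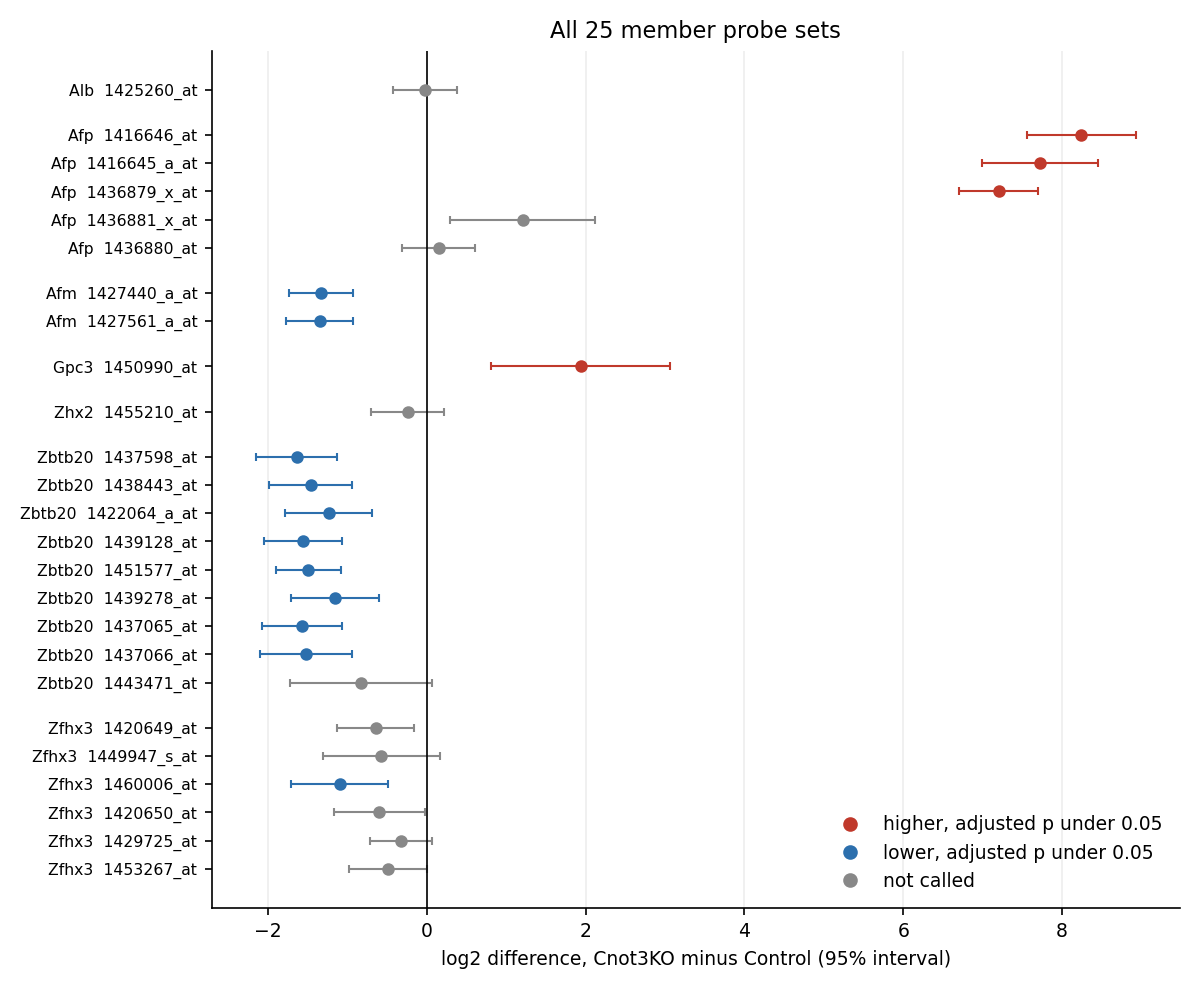
Log2 difference, Cnot3KO minus Control (x axis), of all 25 probe sets with their 95% intervals from the fit over all probe sets, 1 row per probe set. Probe sets called higher are red, those called lower blue and the rest gray. The intervals of 3 Afp probe sets lie above 6, those of Alb and Zhx2 include 0, and 8 of 9 Zbtb20 rows and both Afm rows are blue.

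Relatives of the repressors did not move one way. Of 5 measured, 1 was higher, 1 lower and 3 were not called, with a median of -0.47. Among all genes tested 12.2% were higher and 4.64% lower. Zbtb45, a close relative of Zbtb20, read 3.66 and 3.40 in Cnot3KO livers, against 2.35 and 2.72 in Control livers (1.00 ± 0.21, limma, adjusted p = 0.0384). Both Control values of Zbtb45 lay below the array medians. Zhx3, which forms dimers with other Zhx proteins, read 5.81 and 5.84 in Cnot3KO livers, against 6.89 and 6.51 in Control livers (-0.87 ± 0.19, adjusted p = 0.0440), by 1 of its 6 probe sets. Zhx1 lay at -0.66, Zfhx4 at -0.47 and Zfhx2 at 0.32, none of them called.

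Of the other genes known to be controlled by Zhx2 in mouse liver, 2 of 6 were measured here. Cyp2a4, Cyp4a12b, H19 and Mup20 had no kept probe set that names them alone. The study reported H19 as higher in livers lacking Cnot3. Cyp4a12a, a fatty acid hydroxylase gene that is more active in males, read 8.04 and 7.99 in Cnot3KO livers, against 10.47 and 10.76 in Control livers, and was lower by -2.60 ± 0.18 (adjusted p = 0.00422). Lpl, the lipoprotein lipase gene, read 10.67 and 10.53 in Cnot3KO livers, against 10.13 and 9.78 in Control livers, and was not called (0.65 ± 0.19, adjusted p = 0.0888). Zhx2 itself gave no call beside them.

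Among 17 measured activators of the Alb and Afp genes 1 was higher and 4 were lower, with a median of -0.56, and the nuclear factor I (NFI) genes led the lower ones. NFI proteins bind the promoters of Alb and Afp. Nfix read 6.89 and 6.21 in Cnot3KO livers, against 8.50 and 7.80 in Control livers (-1.60 ± 0.34, adjusted p = 0.0383), with 4 of its 5 probe sets lower. Nfia read 6.38 and 6.55 in Cnot3KO livers, against 8.20 and 7.41 in Control livers (-1.34 ± 0.29, adjusted p = 0.0416), with 2 of 6 lower. Nfib averaged 7.05 in Cnot3KO livers, against 8.15 in Control livers (-1.10 ± 0.19, adjusted p = 0.0222), with 5 of 7 lower. The fourth member, Nfic, lay at -0.62 and was not called (adjusted p = 0.0745).

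Most other factors on this list were not called. Gata6, a zinc finger factor of endoderm, read 6.05 and 6.02 in Cnot3KO livers, against 4.63 and 4.92 in Control livers (1.26 ± 0.18, adjusted p = 0.0153), by 1 of its 3 probe sets. Cebpb, which binds C/EBP sites, read 9.78 and 9.47 in Cnot3KO livers, against 10.45 and 10.58 in Control livers (-0.89 ± 0.19, adjusted p = 0.0378). Hnf4a, a master regulator of hepatocytes, differed by -0.25 (adjusted p = 0.372), and the forkhead genes Foxa1, Foxa2 and Foxa3 by -0.03, 0.51 and 0.03, with no call for any of them. Cebpa lay at -0.76 (adjusted p = 0.137) and Nr5a2, a nuclear receptor that activates Afp, at -0.74 (adjusted p = 0.0508), both not called by their brightest probe set. Of the 4 Nr5a2 probe sets 1 was called lower (-0.83, limma, adjusted p = 0.0299).

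Genes for proteins that carry, take up or work beside the albumin family gave calls in both directions. Of 10 measured, 2 were higher and 2 lower, with a median of -0.11. Among all genes tested 12.2% were higher and 4.64% lower. Amn, part of the receptor complex with cubilin that takes up albumin and vitamin D binding protein in the kidney, read 6.33 and 7.33 in Cnot3KO livers, against 1.73 and 2.48 in Control livers (4.73 ± 0.41, adjusted p = 0.00588). The Control values of Amn lay below the array medians, so the size of its difference is not well measured. Cubn, the partner of Amn, stayed in the low range of every array (0.02, limma, adjusted p = 0.953). Gsn, which with Gc clears actin from plasma, read 7.66 and 7.49 in Cnot3KO livers, against 5.33 and 4.98 in Control livers (2.42 ± 0.20, adjusted p = 0.00532), with 4 of its 5 probe sets higher.

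The lower partners were Cyp27a1 and Ttpa. Cyp27a1, a sterol hydroxylase that can also activate vitamin D, read 9.25 and 9.11 in Cnot3KO livers, against 10.03 and 10.39 in Control livers (-1.03 ± 0.20, adjusted p = 0.0294). Ttpa, the vitamin E transfer protein of hepatocytes, read 10.54 and 10.49 in Cnot3KO livers, against 11.46 and 11.18 in Control livers (-0.80 ± 0.18, adjusted p = 0.0444). Afm, the plasma carrier of vitamin E, was lower on the same arrays. Fcgrt and B2m, whose products form the receptor that rescues albumin from breakdown, differed by -0.18 and -0.11 and were not called.

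Most other plasma carrier genes, like Alb, were not called. Of 12 measured, limma called 0 higher (1 at an unadjusted p under 0.05) and 1 lower, with a median of -0.02. Among all genes tested 12.2% were higher and 4.64% lower. Serpina7, the thyroxine-binding globulin gene, read 1.32 and 1.87 in Cnot3KO livers, against 6.24 and 5.56 in Control livers, and was called lower (adjusted p = 0.00422). The Cnot3KO values lay near the 20th percentile of their arrays, 1 of them below it, so the size of the difference is not well measured. Ttr, which carries thyroxine and retinol-binding protein, differed by -0.02, Rbp4 by -0.03 and the heme carrier gene Hpx by 0.03, all bright and with overlap. Serpina6, the corticosteroid-binding globulin gene, read 7.95 and 8.98 in Cnot3KO livers, against 10.71 and 9.47 in Control livers, and was not called (-1.63 ± 0.52, adjusted p = 0.102).

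**Figure D4:**
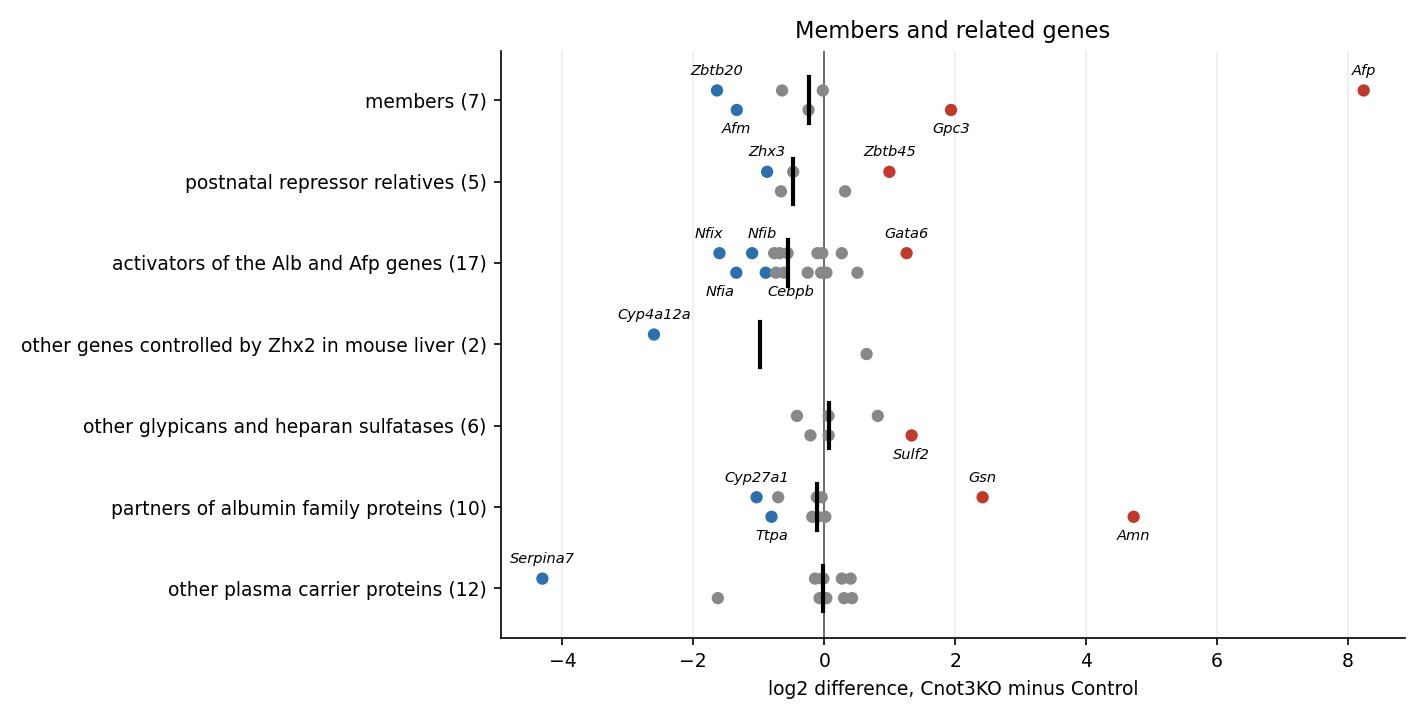
Log2 difference, Cnot3KO minus Control (x axis), of each measured gene of the member list and 6 related lists (rows, number of genes in parentheses), by its brightest probe set. Called genes carry their symbol, red where higher and blue where lower, the gray ones did not pass, and black bars are list medians. Afp stands alone above 8, and the plasma carriers cluster at 0 apart from Serpina7 and Serpina6.

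Among genes beside the Alb, Afp and Afm cluster on chromosome 5, most were not called. Of the 6 nearest protein-coding genes on each side, Gc left aside, 10 of 11 were measured, and 1 was higher and none lower. The shares over all genes tested were 12.2% higher and 4.64% lower. Ankrd17, the gene next to Alb, read 9.07 and 8.88 in Cnot3KO livers, against 7.68 and 7.26 in Control livers (1.51 ± 0.21, adjusted p = 0.0145). Albfm1, an albumin superfamily gene next to Afm, read 7.48 and 7.61 in Cnot3KO livers, against 8.09 and 7.51 in Control livers, with overlap (-0.26 ± 0.24, adjusted p = 0.506). Differences over the 10 ranged from -0.61 to 1.51, with a median of 0.38, against 0.00 over all genes tested. On the Afm side Rassf6, Cxcl5, Ppbp and Pf4 lay at 0.92, 0.67, 0.64 and 0.52. On the Alb side Slc4a4, Npffr2 and Cox18 lay at -0.61, -0.30 and -0.44 and Adamts3 at 0.24. None of these was called, which does not show that they stayed level.

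The genes whose pattern over the 4 arrays was most like that of Afp were Igf2, Sult1e1, Bex1, Sult2a2 and Ly6d. Likeness was the root mean square distance between log2 profiles, each centred on its own mean, and was 0.42 for the fetal growth factor gene Igf2, 0.52 for the oestrogen sulphotransferase gene Sult1e1 and 0.99 for Ly6d as the fifth. Igf2 read 11.24 and 11.03 in Cnot3KO livers, against 3.58 and 3.69 in Control livers. For Gpc3 the nearest were Col4a3, Rbm24, Enkur, Themis and Mbp, at distances from 0.07 to 0.11. The basement membrane collagen gene Col4a3 read 5.57 and 4.04 in Cnot3KO livers, against 2.87 and 2.85 in Control livers. Of these 5 genes 2 passed the test.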

How the data were processed

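RNA of 4 livers was read on 4 Affymetrix mouse arrays. The authors made the deposited intensity values by Robust Multi-array Average (RMA), whose version is not given in the sources used here. These linear intensity values, 1.27 to 16933, were turned to log2 with no constant. A probe set was kept if above the 20th percentile of at least 1 array, after the methods' cut-off. Probes were named from the platform annotation, in which 34945 probe sets named 1 gene, 932 several and 9160 none. Of those naming 1 gene 34741 matched a RefSeq gene by Entrez identifier, which changed 0 symbols. The kept probe set with the highest mean stood for its gene.

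Groups were compared with limma 3.58.1 (R 4.3.3), 2-sided, on 5.40 degrees of freedom (3.40 from the prior). The median SE was 0.192, and the number of arrays limits the precision. In simulated data for Cnot3KO against Control, with 200 of 38405 probe sets changed, the fit found 0% of those at 2-fold, 62% at 4-fold, 90% at 8-fold and 100% at 16-fold, and 9 of its 135 calls were false. In the data far more probe sets were called, 3258 higher and 1837 lower, so the Benjamini-Hochberg adjustment was stricter in the simulation. These shares therefore do not give the sensitivity in the data, where Cnot3 was called at 1.73-fold. Tables were handled in Python 3.11.15 with pandas 2.3.3, numpy 2.4.6 and matplotlib 3.10.9. Alternatives were other filters, normalizations, priors and tests, the replicate number as a block, gene means over probe sets and each array left out, run on the members and on counts over all probe sets.

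The members and lists were chosen with earlier results of these data known. Named were all members, from each list up to 4 called genes with the largest difference (or the 2 with the largest difference), the 5 nearest profiles and the called and immediate neighbours. Outside this rule Cebpb, Nfic, Hnf4a, Foxa1, Foxa2, Foxa3, Cebpa, Nr5a2, Zhx1, Zfhx4, Zfhx2, Lpl, Gpc4, Gpc6, Cubn, Fcgrt, B2m, Ttr, Rbp4, Hpx, Serpina6, Dbp, Prox1 and the marker genes were named after their values were seen. Gc is not analysed here, and 1 planned motif is not reported here.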

Additional observations from a re-analysis of the deposited data

How the results depend on the processing

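Over the alternatives no member gene changed direction except Alb, which stayed uncalled from -0.08 to 0.04, and Afp, Afm and Zbtb20 lost their call only in the methods' t-test after Benjamini-Hochberg adjustment, where 0 member probe sets were higher (of 4) and 0 lower (of 11), against 3 and 11 unadjusted. That test gave Afp 8.24 (adjusted p = 0.154), Afm -1.34 (adjusted p = 0.155), Gpc3 1.94 (adjusted p = 0.315; unadjusted p = 0.107, with equal variances in place of an exact test) and Zbtb20 -1.64 (adjusted p = 0.193), and over all probe sets 0 higher and 1 lower (3860 and 3977 unadjusted). With no filter and with the replicate block the Gpc3 difference of 1.94 lost its call. Quantile normalization again brought Zfhx3 over the threshold (-0.83, adjusted p = 0.0415). Leaving out 1 array gave Gpc3 1.25 to 2.63, 4 to 9 lower member probe sets (4 without Cnot3KO replicate 1 or Control replicate 1), 1194 to 1973 higher and 508 to 1394 lower probe sets in all, and 1 array then stood for its group with the spread of the other. Afp by the mean of its 5 probe sets was 4.90. Afm relative to the median of kept probe sets was -1.39. Centring on array medians or ribosomal protein genes moved the median of all probe sets from -0.08 to -0.04.

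The replicate number was not shown to pair the livers, of which there are only 2 pairs. Deviations of same-numbered arrays from their group means had r = 0.232 over 38405 probe sets. The block changed no member gene's call other than that of Gpc3. A missed threshold, as for Zhx2 and Zfhx3, does not show that the groups were alike, and the precision of each difference is given by its interval over 2 livers a group. Gpc3 in Control livers lay in the low range, where folds are imprecise and no detection calls were used.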

Other observations

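Dbp, a clock-controlled factor known to bind the Alb promoter, differed more between the Control livers than any group difference of the repressors. Its brighter probe set read 7.41 and 5.49 in Cnot3KO livers, against 10.37 and 3.64 in Control livers, and its other probe set 6.22 and 4.76 in Cnot3KO livers, against 9.31 and 3.46 in Control livers. Alb read 13.84 and 13.73 in those Control livers. Prox1, a homeobox gene of liver development, had 1 of 3 probe sets called higher (2.06) while its brightest differed by -0.05.

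Beside the unmeasured Gc gene, with Alb and Afp left aside, 10 genes were read and 3 were higher and 1 lower. Over all genes tested 12.2% were higher and 4.64% lower. Dck, a deoxycytidine kinase gene, differed by 1.05 ± 0.18 (limma, adjusted p = 0.0222) and Utp3, of ribosome assembly, by 0.89 ± 0.20 (adjusted p = 0.0430). Mob1b, of Hippo signalling, was lower by -0.93 ± 0.17 (limma, adjusted p = 0.0286). The third higher gene was Ankrd17, which was also counted above as the neighbour of Alb. The immediate neighbours Slc4a4 and Npffr2 lay at -0.61 and -0.30 and were not called.

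The 2 Cnot3KO livers differed from each other in several genes, with no single order over the members. Cnot3KO replicate 1 read above replicate 2 in 5 of 5 Afp probe sets, in Gpc3 and in 7 of 7 bile duct and progenitor markers, and below it in 9 of 9 Zbtb20 probe sets. It read above in 4 of 6 Zfhx3 and 1 of 2 Afm probe sets, and below in Amn (6.33 and 7.33) and in Sult2a2 (9.21 and 10.93), a gene near Afp in profile. Over all kept probe sets 49.6% had replicate 1 below. With 2 livers this is a description of those livers, and no relation between the genes was tested.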
